A study of Rattus rattus with 6 samples.

Results

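Transcripts of 5 antioxidant enzymes were compared between young and old rat left ventricle: Sod1 (ENSRNOG00000002115), Sod2 (ENSRNOG00000019048), Cat (ENSRNOG00000008364), Hmox1 (ENSRNOG00000014117) and Nqo1 (ENSRNOG00000012772). They are 5 of the 23976 genes in the table and were chosen by Ensembl identifier, as a list of enzymes. Earlier results of these data were known when the list was made. The table pairs no identifier with a symbol, and 0 of its identifiers occurred in the reference table used here, so each symbol is the one the member list gives for its identifier and was not checked against a reference. All animals were untreated wild type male Wistar-Kyoto rats, an inbred strain with normal blood pressure. Young adults were 3 months of age and old adults 24 months, with 3 libraries at each age and 1 animal behind each library per the labels. RNA depleted of ribosomal RNA was sequenced, and levels are given as TPM, an abundance scaled to a sum of 1000000 per library and corrected for transcript length so that levels of different genes can be set side by side. Young libraries are called young replicates 1 to 3. The old libraries are called OH1, OH2 and OH5, after their columns, because their numbers could not be tied to single old animals.

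The 5 enzymes act at different points against reactive oxygen species. Superoxide dismutases turn superoxide into hydrogen peroxide, SOD1 with copper and zinc mainly in the cytosol and SOD2 with manganese in the mitochondrial matrix, and catalase breaks hydrogen peroxide down to water and oxygen. Heme oxygenase 1, the product of Hmox1, opens heme to biliverdin, carbon monoxide and iron, and NQO1 reduces quinones by a transfer of electron pairs that avoids reactive semiquinones. Hmox1 and Nqo1 are textbook targets of the transcription factor NRF2, and Hmox1 is in addition held down by BACH1 and induced by heme. Cardiac muscle, rich in mitochondria, depends on SOD2 in particular: mice that lack it develop a dilated cardiomyopathy soon after birth.

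A feature of the whole table bears on every value below. The 15 genes whose mean reached 1000 TPM took up most of each library, and all other genes shared 6.39%, 10.6% and 10.5% of TPM in young replicates 1, 2 and 3 and 5.84%, 6.05% and 5.08% in OH1, OH2 and OH5. Young libraries averaged 9.19% ± 2.42 and old libraries 5.66% ± 0.506 (n = 3, SD; p = 0.1 in an exact two-sided permutation test, which cannot give less with 3 libraries a group). Young replicate 1 stood apart from the other young libraries on this measure and lay next to the old ones. The enzymes were therefore read on 2 scales: TPM as deposited, and TPM rescaled to 1000000 per library after the 15 genes were left out. The rescaled value is a level relative to the remaining genes. It would also remove a fall shared by all of those genes, so neither scale is known to be the right one. In whole tissue, fewer cells of a type and less RNA per cell cannot be told apart.

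By group means, the order of the deposited levels was the same in both ages. Cat was the most abundant, at 17.5 ± 6.69 TPM in young and 11.6 ± 0.702 in old ventricle (SD, n = 3). It was followed by Sod2 at 8.36 ± 3.49 and 5.80 ± 1.67 TPM, Sod1 at 7.94 ± 3.23 and 4.41 ± 0.639 TPM, Hmox1 at 2.64 ± 1.37 and 3.72 ± 1.51 TPM, and Nqo1 at 0.800 ± 0.306 and 0.528 ± 0.0703 TPM. Of all genes listed above 0, 95.1% had a lower mean than Cat, 86.6% a lower mean than Sod2, 84.5% a lower mean than Sod1, 70.8% a lower mean than Hmox1 and 41.2% a lower mean than Nqo1.

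Neighbours in this order were compared within libraries, where scaling cancels, with both ages pooled. The order came from these same libraries, so the tests describe it and are no independent check. Their p values are not adjusted over the pairs. Cat exceeded Sod2 in 6 of 6 libraries, by 1.65-fold to 2.65-fold (exact two-sided sign-flip permutation p = 0.0312, the smallest that 6 libraries allow). Hmox1 exceeded Nqo1 in 6 of 6, by 2.41-fold to 11.2-fold (exact permutation p = 0.0312). Sod2 was above Sod1 in 5 of 6 libraries, with a Sod1 to Sod2 ratio of 0.685 to 1.02 (exact permutation p = 0.0625), so these neighbours were not separated by the test. Sod1 was above Hmox1 in 5 of 6 (exact permutation p = 0.0625). The exception was OH5, where Hmox1 at 5.47 TPM stood above Sod1 at 4.10 TPM and Sod2 at 4.19 TPM.

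**Figure D1:**
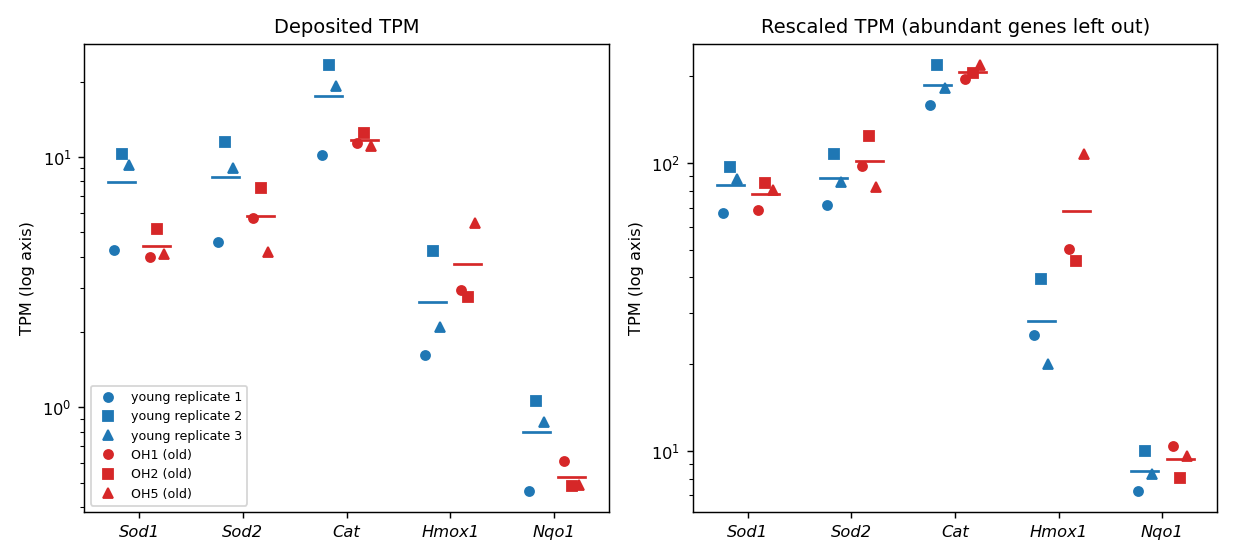
Level of each enzyme in each library, on the deposited TPM scale (left) and on the rescaled TPM scale (right), both on log axes; blue symbols are young libraries, red symbols old ones, and horizontal lines are group means. On the left young replicate 1 is the lowest young library for all 5 genes; on the right the only gene whose groups separate is Hmox1, with old libraries from 45.6 to 107.5 and young libraries from 19.96 to 39.4.

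Sod1, the cytosolic dismutase, was the only member past the threshold on the deposited scale. It stood at 4.27, 10.3 and 9.25 TPM in young replicates 1, 2 and 3 and at 3.99, 5.15 and 4.10 TPM in OH1, OH2 and OH5. The groups overlapped, since young replicate 1 lay among the old libraries. Sod1 fell by 0.65 on the log2(TPM + 1) scale (SE 0.27, 95% interval -1.19 to -0.12, limma adjusted p = 0.0418). This scale understates the change of genes near 1 TPM. The SE draws on the spread shared by all genes, and from the values of Sod1 alone it was 0.36. An exact two-sided permutation test on the deposited TPM of Sod1 gave p = 0.2. The call has to be read against the table: 46.8% of the 9502 genes tested were called lower in old on this scale, their median log2 fold change was -0.53, and 29.3% of them had a lower value than Sod1.

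The Sod1 call rested on single libraries. Without young replicate 1 the log2 fold change was -0.998 (limma adjusted p = 0.000102), at a background of 93.2% of genes called. Leaving out any one of the other 5 libraries ended the call, with limma adjusted p values of 0.0944 (without OH2) to 0.256 (without young replicate 2). The log2 fold change was then -0.60, -0.75 and -0.61 without OH1, OH2 and OH5, and -0.45 and -0.52 without young replicates 2 and 3. The share of all tested genes called was 4.08% to 8.82% in these 5 fits, against 47.7% with all libraries. Each column name carries a suffix, _1 or _2, which the labels do not explain. Suffix _1 belongs to young replicates 1 and 3 and OH1, and suffix _2 to young replicate 2, OH2 and OH5. A limma fit with the suffix beside age gave -0.79 with an adjusted p of 0.0682. Within the libraries of suffix _1 the difference was -0.56, and within those of suffix _2 it was -1.01. The former rests on a single old library and the latter on a single young library.

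After rescaling, the ages differed in Sod1 by less than the spread between libraries. It stood at 66.7, 96.8 and 87.9 rescaled TPM in the young libraries and at 68.4, 85.1 and 80.6 in the old ones, so that the old values lay inside the young range. The log2 fold change was -0.09 ± 0.16 (SE, 95% interval -0.45 to 0.27, limma adjusted p = 0.776). The interval leaves room for a change of moderate size in either direction.

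Sod2, the mitochondrial dismutase, did not pass the threshold on either scale. Its values were 4.56, 11.4 and 9.06 TPM in young replicates 1, 2 and 3 and 5.68, 7.52 and 4.19 TPM in OH1, OH2 and OH5. Young and old overlapped, with OH5 lowest of all and young replicate 2 highest. The log2 fold change was -0.41 ± 0.28 on the deposited scale (limma adjusted p = 0.176) and 0.20 ± 0.19 after rescaling (95% interval -0.24 to 0.63, limma adjusted p = 0.583). The sign thus depended on the scale. Rescaled values were 71.4, 107.4 and 86.1 in young and 97.4, 124.4 and 82.4 in old, and the spread within a group was similar in both, with a coefficient of variation of 20.5% in young and 21.0% in old.

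Cat, which encodes catalase, behaved like Sod2 in this respect. It stood at 10.2, 23.3 and 19.2 TPM in the young libraries and at 11.4, 12.4 and 11.1 TPM in the old ones. The old libraries were close together and lay between young replicate 1 and the other young libraries. The log2 fold change was -0.48 ± 0.31 on the deposited scale (limma adjusted p = 0.156) and 0.16 ± 0.14 after rescaling (95% interval -0.16 to 0.47, limma adjusted p = 0.539). Without young replicate 1, Cat and Sod2 also passed on the deposited scale, at -0.81 (limma adjusted p = 0.000661) and -0.75 (0.00318), again where 93.2% of all genes were called. After rescaling neither passed without that library, with limma adjusted p values of 0.857 for Cat and 0.898 for Sod2. The 3 old rescaled Cat values, 195.3, 205.7 and 218.2, were the least variable of any member, with a coefficient of variation of 5.57%.

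**Figure D2:**
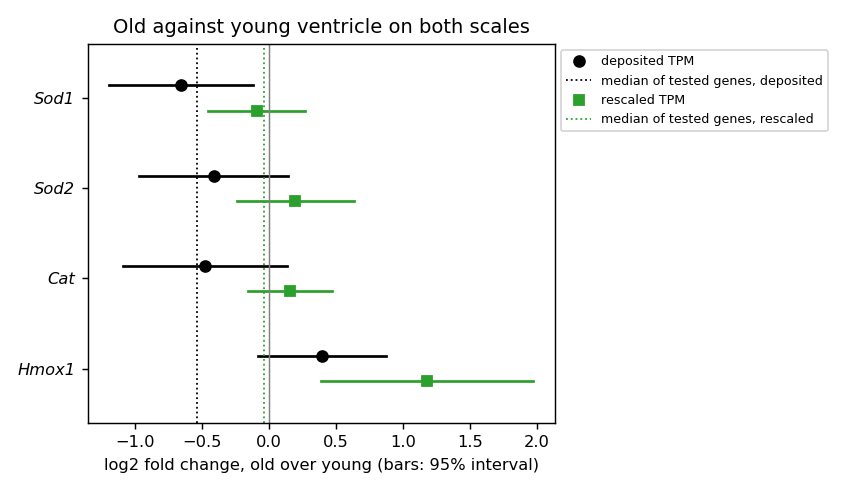
Log2 fold change of old over young for the 4 enzymes that passed the filter, on the deposited (black circles) and the rescaled (green squares) scale, with 95% limma intervals as bars and the median of all tested genes on each scale as a dotted line. On the rescaled scale the intervals of Sod1, Sod2 and Cat include 0, and that of Hmox1 runs from 0.39 to 1.97.

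Nqo1 was the scarcest member and reached 1 TPM in 1 of 6 libraries, so it did not pass the filter, which asked for 1 TPM in 3 or more libraries, and was not part of the main fits. Its values were 0.465, 1.06 and 0.873 TPM in young replicates 1, 2 and 3 and 0.609, 0.487 and 0.488 TPM in OH1, OH2 and OH5. The groups overlapped through young replicate 1, the lowest of all. Rescaled values were 7.27, 9.99 and 8.29 in young and 10.4, 8.05 and 9.59 in old, again with overlap (exact two-sided permutation p = 0.5). In the fit without a filter the log2 fold change was -0.22 on the deposited scale (limma adjusted p = 0.256) and 0.13 after rescaling (limma adjusted p = 0.759).

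Hmox1, the inducible heme oxygenase, was the only member with a higher mean in old ventricle on the deposited scale. It stood at 1.62, 4.19 and 2.10 TPM in young replicates 1, 2 and 3 and at 2.94, 2.76 and 5.47 TPM in OH1, OH2 and OH5. OH5 was the highest library of all, and young replicate 2 lay above OH1 and OH2, so the groups overlapped. The log2 fold change was 0.39 ± 0.24 (95% interval -0.08 to 0.87, limma adjusted p = 0.137), which does not pass the threshold. Within suffix _1, with a single old library, the deposited-scale difference was 0.47. Within suffix _2, with a single young library, it was -0.08.

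After rescaling, Hmox1 stood at 25.3, 39.4 and 19.96 in young and at 50.4, 45.6 and 107.5 in old. Every old library lay above every young one, and OH5 was far above OH1 and OH2. Groups that did not overlap with old higher were found for 11.3% of the 9487 genes tested on this scale. The group means were 28.2 ± 10.04 and 67.8 ± 34.5 (SD, n = 3), a ratio of 2.40, with p = 0.1, the smallest possible, in the exact two-sided permutation test. The limma log2 fold change was 1.18 ± 0.34 with a 95% interval of 0.39 to 1.97, an unadjusted p of 0.00863 and an adjusted p of 0.0835. Hmox1 thus missed the threshold, which 2.66% of tested genes passed with higher levels in old.

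Rescaling multiplies all remaining genes of a library by the same factor. Apart from the 1 TPM added before the logarithm, it shifts every log2 fold change alike and keeps their order. The similar position of Hmox1 on both scales was therefore built in and is no measure of robustness. Of the tested genes, 98.7% had a lower log2 fold change than Hmox1 on the deposited scale and 98.6% after rescaling. The corresponding values were 29.3% and 41.7% for Sod1, 70.8% and 79.7% for Sod2, and 60.0% and 76.3% for Cat. Without OH5 the rescaled log2 fold change of Hmox1 was 0.80 (limma adjusted p = 0.166), and without young replicate 2 it was 1.44 (limma adjusted p = 0.0795). Within the libraries of suffix _1, with a single old library, the rescaled difference was 1.13. Within those of suffix _2, with a single young library, the rescaled difference was 0.82. With the suffix as a second term it was 0.97 (limma adjusted p = 0.167).

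**Figure D3:**
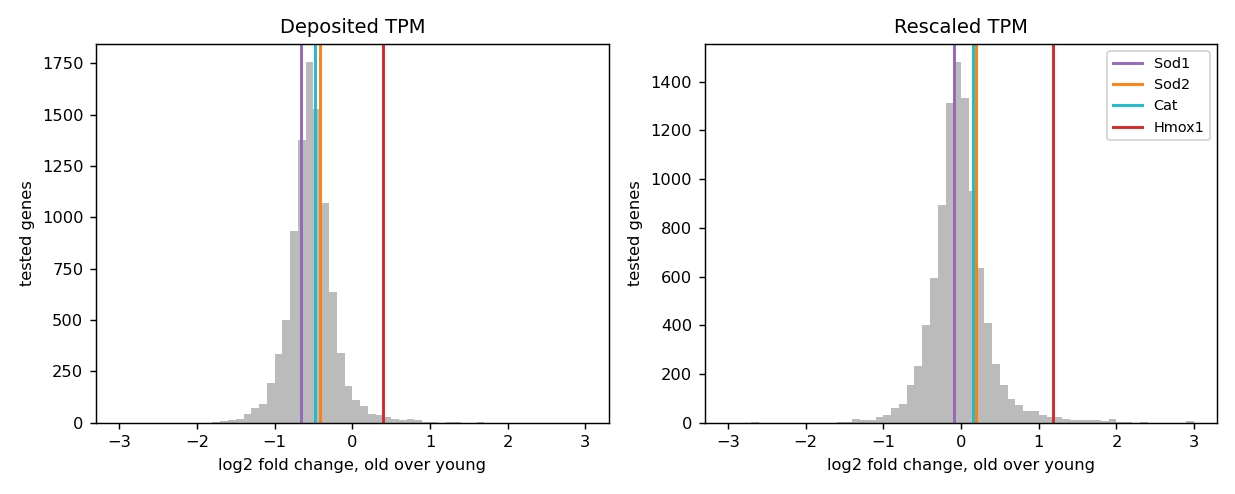
Distribution of log2 fold changes, old over young, of all tested genes on the deposited (left) and the rescaled (right) scale, as counts of genes in bins of 0.1, with coloured lines at the 4 enzymes that passed the filter; values beyond 3 in either direction are counted in the end bins. Sod1, Sod2 and Cat lie in the body of both distributions and Hmox1 lies in the upper tail of both.

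Of the 4 members in the main fits, 1 was called on the deposited scale, where 47.7% of tested genes were called in either direction. After rescaling 0 were called, beside 6.07% of tested genes (limma-trend, Benjamini-Hochberg adjusted p below 0.05). Nqo1 was not tested in these fits. On each scale 1 member had an unadjusted limma p below 0.05, Sod1 on the deposited scale, where 62.9% of tested genes did, and Hmox1 after rescaling, where 23.5% did. The log2 fold change was negative for 4 of 5 members on the deposited scale and positive for 4 of 5 after rescaling. No member had deposited values that separated the ages in all libraries, whereas 55% of tested genes did. The median over the 5, with Nqo1 from the fit without a filter, was -0.41 on the deposited scale. Beside it stood -0.53 over the genes that passed the filter and -0.30 over all genes listed above 0. After rescaling it was 0.16, beside -0.04 over the genes that passed the filter and -0.0012 without a filter. The side on which the deposited median of the members lay thus differed between the filtered and the unfiltered genes. Adding 1 TPM understates the changes of genes near or below 1 TPM, Nqo1 among them. Such genes are more common without the filter, so these medians do not place the enzymes against the typical gene.

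Ratios between members within a library are the same on both scales. Of the 10 pairs, 5 separated the old from the young libraries, each with an exact two-sided permutation p of 0.1, the smallest possible before or after any adjustment over the 10. All 4 pairs with Hmox1 were among them, and 1 of the 6 pairs without it. Sod1 was at 2.64, 2.46 and 4.40 times the level of Hmox1 in young replicates 1, 2 and 3 and at 1.36, 1.87 and 0.749 times in OH1, OH2 and OH5. The level of Hmox1 relative to Sod1 was thus 2.47-fold higher in old ventricle, by group means of log2 ratios.

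Relative to Cat, Hmox1 was 2.08-fold higher in old: Cat stood at 6.29, 5.54 and 9.12 times Hmox1 in young and at 3.88, 4.51 and 2.03 times in old. Relative to Nqo1, the other NRF2 target, Hmox1 was 2.10-fold higher in old, with Hmox1 to Nqo1 ratios of 3.48, 3.94 and 2.41 in young and 4.83, 5.66 and 11.2 in old. Relative to Sod2 it was 2.02-fold higher, and there the groups only just separated. The Sod2 to Hmox1 ratio was 2.728 in young replicate 2 and 2.727 in OH2. These 4 ratios share the Hmox1 values and are not independent of each other. Nor are they peculiar to the enzymes: of all tested genes, 70.6% had a ratio to Hmox1 whose groups did not overlap. With 1 TPM added to each value, Hmox1 still separated from Sod1 and Cat but no longer from Sod2 and Nqo1. OH5 carried much of the size: without it the log2 ratio of Sod2 to Hmox1 differed by -0.49 between ages in place of -1.01, and that of Sod1 to Hmox1 by -0.94 in place of -1.30.

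**Figure D4:**
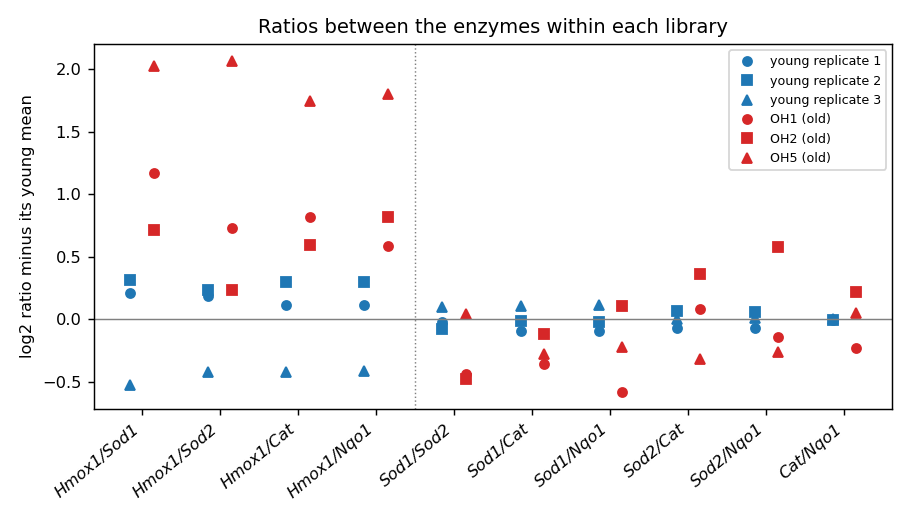
Log2 ratio of each pair of enzymes in each library, minus its mean over the 3 young libraries; blue symbols are young libraries, red symbols old ones, and pairs with Hmox1 stand left of the dotted line. Left of the line the old libraries lie above the young ones, OH5 the highest in all 4 pairs, while Hmox1 to Sod2 in OH2 lies level with young replicate 2; right of it the old libraries lie within 0.6 of the young mean.

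Among the other 6 pairs, group differences were small, at most 0.29 on the log2 scale. Sod1 was lower against Cat in every old library, at 0.350, 0.414 and 0.369 times Cat in OH1, OH2 and OH5 and at 0.419, 0.443 and 0.483 times in young replicates 1, 2 and 3. The mean log2 difference was -0.25 (exact two-sided permutation p = 0.1), and OH2 and young replicate 1 were close neighbours. Of all tested genes, 21.8% had a ratio to Cat that did not overlap between ages. Sod1 to Sod2 was at 0.935, 0.901 and 1.02 in young and at 0.702, 0.685 and 0.978 in old, with OH5 inside the young range. Cat to Nqo1 ran from 21.87 to 21.95 in young ventricle and from 18.7 to 25.5 in old. Nqo1 reached 1 TPM in 1 of 6 libraries and read depth is unknown, so these ranges are not read as a difference in variability. With 1 TPM added, the log2 difference of this pair between ages was -0.26 in place of 0.02.

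As parts of the summed level of the 5 enzymes, Hmox1 made up 7.67%, 8.35% and 5.19% in young replicates 1, 2 and 3 and 11.9%, 9.73% and 21.6% in OH1, OH2 and OH5. Sod1 made up 20.2%, 20.5% and 22.9% in young and 16.2%, 18.2% and 16.2% in old. For both genes the groups did not overlap (exact two-sided permutation p = 0.1). How many of all tested genes would separate on this measure was not worked out, so the separation is not read as particular to these enzymes. Cat kept the largest part, 47.3% ± 0.989 in young and 44.7% ± 1.42 in old (exact permutation p = 0.2), and Sod2 held 22.3% ± 0.570 and 22.0% ± 5.08. The parts add to a fixed sum, so a larger part of Hmox1 lowers the others.

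The profiles over the 6 libraries were compared as root mean square distances between centred log2 rescaled values. Cat and Nqo1 were the closest members, at 0.122, and 297 of 9486 other tested genes lay closer to Cat than Nqo1 did. Sod1 lay at 0.153 from Cat, and 413 tested genes were closer to Sod1. Sod2 lay at 0.200 from Cat, its nearest member. Hmox1 lay at 0.653 from Cat, 0.677 from Nqo1, 0.759 from Sod2 and 0.784 from Sod1, beside a median distance of 0.804 to all tested genes. Seen from Hmox1, 10.1% of tested genes were closer than Cat, 13.2% closer than Nqo1, 32.6% closer than Sod2 and 42.5% closer than Sod1. Seen from the other members, Hmox1 was among the most distant genes, with the share of tested genes that were closer running from 97.2% for Cat to 98.3% for Sod1. A gene with little change lies near many others, so these distances describe the profiles and mark no special relation. Genes closest to each member are not named, since their identifiers have no symbols here.

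Further genes of the NRF2, glutathione, thioredoxin and peroxiredoxin systems, 53 in a list, and 39 markers of ventricular, atrial, vascular, blood, immune and fat cells could not be looked up, because the identifiers have no symbols here. The labelled tissue was therefore not checked against its markers. Hmox1 is known to be high in macrophages that take up red blood cells, and the part of such cells or of any other cell type in its level was not tested.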

How the data were processed

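Per the labels' protocols, RNA of 6 left ventricles was depleted of ribosomal RNA and sequenced as directional paired-end libraries on more than 1 Illumina model, and which library ran on which is not stated there. Per the submitters' processing notes, Salmon and the build mRatBN7.2 were used. No source used here gives the Salmon version or the annotation release. The authors deposited TPM values, each column summing to 1000000. TPM keeps no read depth, so no counting interval could be given. Young columns were matched by individual number and old columns by group only.

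The members, lists and tests were chosen with earlier results of these data known. Genes reaching 1 TPM in 3 or more libraries (9502) were fitted with limma-trend (limma 3.58.1, R 4.3.3) on log2(TPM + 1), age as the only term, Benjamini-Hochberg adjusted over all of them, threshold 0.05. The second fit (9487 genes) used rescaled TPM. Prior degrees of freedom were 91.8 and 4.22, so deposited-scale errors rest mostly on the spread shared by all genes. The limma fit was tried on simulated data drawn like the rescaled values, with independent noise for each gene and no shift shared by a whole library. The deposited-scale fit was not tried in this way. Ratios and single values were compared with exact permutation tests (SciPy 1.17.1). All 5 members are described, by rule. Symbols were sought in 32100 RefSeq genes of Rattus rattus, the species the labels name, although the strain and build belong to Rattus norvegicus. No sequence was available for matching and none is printed.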

Additional observations from a re-analysis of the deposited data

How the results depend on the processing

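On the deposited scale 1 member (Sod1) passed. The count was 0 without a filter (0.0165% of all tested genes called), without limma's trend (41.4%), with the column suffix as a term (14.6%) and with median-ratio (6.11%) or quantile scaling (6.07%). It was 3 (Sod1, Sod2, Cat) with array weights, where 88.2% of all genes were called. Leaving out one library gave 0 to 3, with 4.08% to 93.2% of all genes called. Median-ratio scaling and quantile normalization turned the sign of Sod2 (0.18 and 0.22) and of Cat (0.16 and 0.21). After rescaling 0 members passed. The count was 1, Hmox1, with array weights (1.10, limma adjusted p = 0.0334, 15.7% of all genes called) and when only genes of 10000 TPM or more were left out (1.18, limma adjusted p = 5.46e-06, 6.61% called); that fit had infinite prior degrees of freedom and used only the spread shared by all genes. Over the 15 alternatives, Hmox1 was higher in old in all, from 0.80 to 1.44, with limma adjusted p from 5.46e-06 to 0.209. Rescaled Sod1 ran from -0.24 to 0.021 when one library was left out, and turned positive without young replicate 2 (0.021) and without OH1 (0.00039). Of the 10 ratios, 5 did not overlap, and 3 with 1 TPM added. Leaving out a single library gave 5 to 7. That step cannot undo a separation, so 5 was the lowest count it could give, and the range is no measure of robustness. The share of all genes that separated under these settings was not worked out. The cause of the changes between settings was not tested. No paired analysis was possible because the old columns carry no replicate number. Alternatives within the column suffix were chosen after seeing the data. Depth is unknown, so what it limits cannot be stated.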
